A study of Mus musculus with 6 samples.

Results

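The enzymes that oxidise methylated cytosine, the CCAAT-binding factor NF-Y and a few genes tied to them were followed in CD4+ T cells of CBS-KO mice, which lack cystathionine beta-synthase (CBS), and of WT mice. The set comprised Tet1, Tet2, Tet3, Nfya, Nfyb, Nfyc, Tdg, Cxxc5, Idh1 and Idh2, and every probe set annotated to exactly 1 of these 10 genes was taken. This gave 13 of the 34760 probe sets on the array, for 9 of the 10 genes and of 19937 genes with a probe set of their own. Tdg, the glycosylase that removes oxidised cytosine from DNA, had no probe set of its own, because its 4 probe sets are shared with Tdg-ps2, and it is given no value. All mice carried the C57BL/6 background and were 6 weeks of age, and CBS loss was the only genotype difference that the labels name. Each genotype was measured on 3 Affymetrix arrays, described as biological replicates, a number that sets a limit on precision. The sources used here do not say how the deletion was made, nor how pure the cells were.

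TET enzymes are dioxygenases that use iron, oxygen and 2-oxoglutarate to oxidise 5-methylcytosine, the first step of active DNA demethylation, and in regulatory T cells they help keep the regulatory regions of Foxp3 free of methylation. NF-Y is a trimer in which the histone-fold subunits NF-YB and NF-YC form a dimer that NF-YA joins to contact the CCAAT box of promoters. CBS makes hydrogen sulfide from cysteine and homocysteine, and work on mouse T cells has placed NF-Y between hydrogen sulfide and the transcription of Tet1 and Tet2. Cxxc5 carries a CXXC zinc finger that binds CpG-rich DNA, as do Tet1 and Tet3, while the isocitrate dehydrogenases Idh1 (cytosol) and Idh2 (mitochondria) make the 2-oxoglutarate that TET enzymes consume.

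The promoters of the 3 TET genes and of Idh1 are shown because Tet1 and Idh1 carried the called differences described below, with Tet2 and Tet3 beside Tet1, and because NF-Y and the Sp factors read short motifs in such regions. Each window runs from 250 bases before to 50 bases after an annotated start in RefSeq (GRCm38.p6), 5′ to 3′ on the strand of the gene. Capitals mark CCAAT or its reverse complement ATTGG, and GGGCGG or its reverse complement CCGCCC, and no marked motifs overlap.
Tet1, chr10:62887275-62887574, minus strand: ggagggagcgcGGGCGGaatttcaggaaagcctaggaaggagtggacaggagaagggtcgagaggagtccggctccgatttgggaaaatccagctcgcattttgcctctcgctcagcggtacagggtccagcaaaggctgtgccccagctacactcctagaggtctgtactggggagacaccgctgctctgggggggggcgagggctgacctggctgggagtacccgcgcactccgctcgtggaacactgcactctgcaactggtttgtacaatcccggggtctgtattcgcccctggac
Tet2, chr3:133544341-133544640, minus strand: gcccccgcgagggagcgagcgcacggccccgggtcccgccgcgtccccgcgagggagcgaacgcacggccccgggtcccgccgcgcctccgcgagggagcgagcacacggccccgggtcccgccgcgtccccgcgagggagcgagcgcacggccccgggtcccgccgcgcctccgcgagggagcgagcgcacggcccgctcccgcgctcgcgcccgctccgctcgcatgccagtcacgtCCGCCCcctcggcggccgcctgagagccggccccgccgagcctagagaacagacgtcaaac
Tet3, chr6:83441629-83441928, minus strand: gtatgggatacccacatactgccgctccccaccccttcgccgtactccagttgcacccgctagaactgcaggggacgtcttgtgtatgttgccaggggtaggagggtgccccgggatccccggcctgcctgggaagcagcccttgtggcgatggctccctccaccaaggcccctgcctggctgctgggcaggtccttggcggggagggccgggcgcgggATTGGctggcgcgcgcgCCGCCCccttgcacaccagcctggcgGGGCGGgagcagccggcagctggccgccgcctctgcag
Idh1, chr1:65186430-65186729, minus strand, the start with the higher coordinates of the 2 annotated for this gene: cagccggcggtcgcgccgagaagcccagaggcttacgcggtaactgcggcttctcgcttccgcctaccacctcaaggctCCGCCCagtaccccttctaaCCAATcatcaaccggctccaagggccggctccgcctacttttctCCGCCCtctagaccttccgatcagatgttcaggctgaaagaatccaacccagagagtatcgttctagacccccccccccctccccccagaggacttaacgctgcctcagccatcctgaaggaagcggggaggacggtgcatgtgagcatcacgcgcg
The windows of Tet1 and Tet2 hold no CCAAT on either strand, and that of Tet3 holds 1, beginning 31 bases before the start. The Idh1 window shown holds 1, beginning 151 bases before the start. The window of the other Idh1 start, not shown, holds no CCAAT and 1 GGGCGG. Each of the TET windows holds GGGCGG, 1 time in Tet1 and Tet2 and 2 times in Tet3. Over all 32851 windows of 300 bases, 37.4% held CCAAT and 35.7% held GGGCGG on either strand. Among 14 windows of 9 member genes, Tdg included and Cxxc5 not searched, 7 held CCAAT. In Nfyc, 1 of 3 windows held 5 of them and another held 3. The Tet2 window held 57 CG dinucleotides, the 99.9th percentile of all windows, against 17 in Tet1 and 22 in Tet3 and a median of 7 overall. These matches describe letters within the windows and do not show that a factor binds there.

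Values below are log2(intensity + 16) unless given as intensities, and differences are CBS-KO minus WT. Array medians lay between 7.37 and 7.55 on this scale. Y-linked signal was present on CBS-KO 1 and CBS-KO 2 and on no other array, so genotype and sex were partly confounded. With sex as a model term the estimate rests on CBS-KO 3. The Cbs probe set read 7.41 ± 0.20 in CBS-KO and 7.35 ± 0.15 in WT cells (SD, n = 3 each), and the sources used here do not say which part of the gene it covers. Of the 11 measured CD4 T cell markers (14 listed), 4 were lower and none higher, with summed intensities of 34998 to 56230.5 in CBS-KO and 66325 to 72813 in WT arrays. Markers of several myeloid and red cell types were higher in CBS-KO arrays. For neutrophils 12 of 14 were higher, with sums of 28995 to 39912 in CBS-KO against 1763 to 3565 in WT arrays. For monocytes and macrophages 11 of 14 measured markers were higher (19813 to 26569 in CBS-KO, 6066 to 8658 in WT), and for red cell precursors all 7 measured of 14 listed (13831 to 32232 in CBS-KO, 1996 to 3571 in WT). For NK cells 4 of 8 were higher and 1 lower, for dendritic cells 3 of 9 measured were higher, for B cells 1 of 9, and for CD8 T cells neither of the 2 measured. No marker was at 0 on any array. In such bulk samples fewer cells of a type and less RNA per cell cannot be told apart.

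Tet1 was the only TET gene whose probe sets passed the test, and it fell to well under the WT level in all CBS-KO arrays. All 3 of its probe sets were called lower, Tet2 and Tet3 had negative differences that did not pass, and Idh1 was called higher. A linear model across all tested probe sets (limma, Benjamini-Hochberg adjusted p under 0.05) thus called 3 of the 13 member probe sets lower and 1 higher, where 4.47% and 5.09% of the 20856 tested probe sets were called in these directions and 9.57% in either. All 13 passed the filter on low values.

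The brightest Tet1 probe set, 10369702, had intensities of 535, 737 and 504 in CBS-KO 1 to 3, against 1639, 1637 and 1483 in WT 1 to 3. Probe set 10369690 had 269, 281 and 250 in CBS-KO against 633, 668 and 728 in WT cells. Probe set 10369688 had 203, 188 and 166 in CBS-KO against 483, 506 and 565 in WT cells. Every CBS-KO array lay below every WT array in all 3 probe sets, with gaps of 0.99, 1.13 and 1.19 log2 units between the nearest arrays of the groups. The means of 10369702 were 9.23 ± 0.29 in CBS-KO and 10.64 ± 0.08 in WT cells (SD, n = 3 each). Its log2 fold change was -1.42 (SE 0.16, 95% confidence interval -1.81 to -1.02, limma adjusted p = 0.0103), or 0.375 times the WT level. The other probe sets changed alike, by -1.29 (SE 0.12) for 10369690 and -1.41 (SE 0.13) for 10369688, with limma adjusted p of 0.00628 and 0.00615. Differences between the Tet1 probe sets were small, at -0.11, 0.01 and 0.12 for the 3 pairs, and their arrays overlapped in each pair. Leaving out CBS-KO 1 (adjusted p = 0.0555), or WT 1 (0.0679), or WT 2 (0.0699) ended the call of 10369702, and leaving out WT 2 (0.0532) that of 10369690. The difference of 10369702 lay between -1.58 and -1.31 with any single array left out.

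Tet2, the TET enzyme whose loss in blood cells favours myeloid expansion, had intensities of 790, 878 and 561 in CBS-KO 1 to 3, against 1070, 1117 and 1010 in WT 1 to 3. The groups did not overlap, but CBS-KO 3 lay well below the other CBS-KO arrays. The log2 means were 9.54 ± 0.33 in CBS-KO and 10.08 ± 0.07 in WT cells, a difference of -0.53 (SE 0.18, interval -0.96 to -0.11, limma adjusted p = 0.101). Tet3, the form that oxidises the paternal genome in the mouse zygote, was read by 2 probe sets. The first, 10545682, had 1386, 1711 and 1187 in CBS-KO against 1840, 2050 and 2110 in WT cells. The second, 10545692, had 1161, 1358 and 901 in CBS-KO against 1514, 1635 and 1632 in WT cells. Again the groups did not overlap and CBS-KO 2 lay nearest to WT. Their differences were -0.49 (SE 0.15, limma adjusted p = 0.0821) and -0.50 (SE 0.16, 0.094), which differ from each other by 0.0018. Without CBS-KO 2, Tet2 (-0.66, adjusted p = 0.0293) and both Tet3 probe sets (-0.63 each, 0.0114 and 0.018) passed. With sex as a model term the estimates were those of CBS-KO 3 alone, the lowest CBS-KO array for these genes, at -0.91 for Tet2 and -0.74 and -0.81 for Tet3. In all, 6 of 13 member probe sets had every CBS-KO array below every WT array and 1 had every CBS-KO array above, where 21.7% and 15% of all tested probe sets did.

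**Figure D1:**
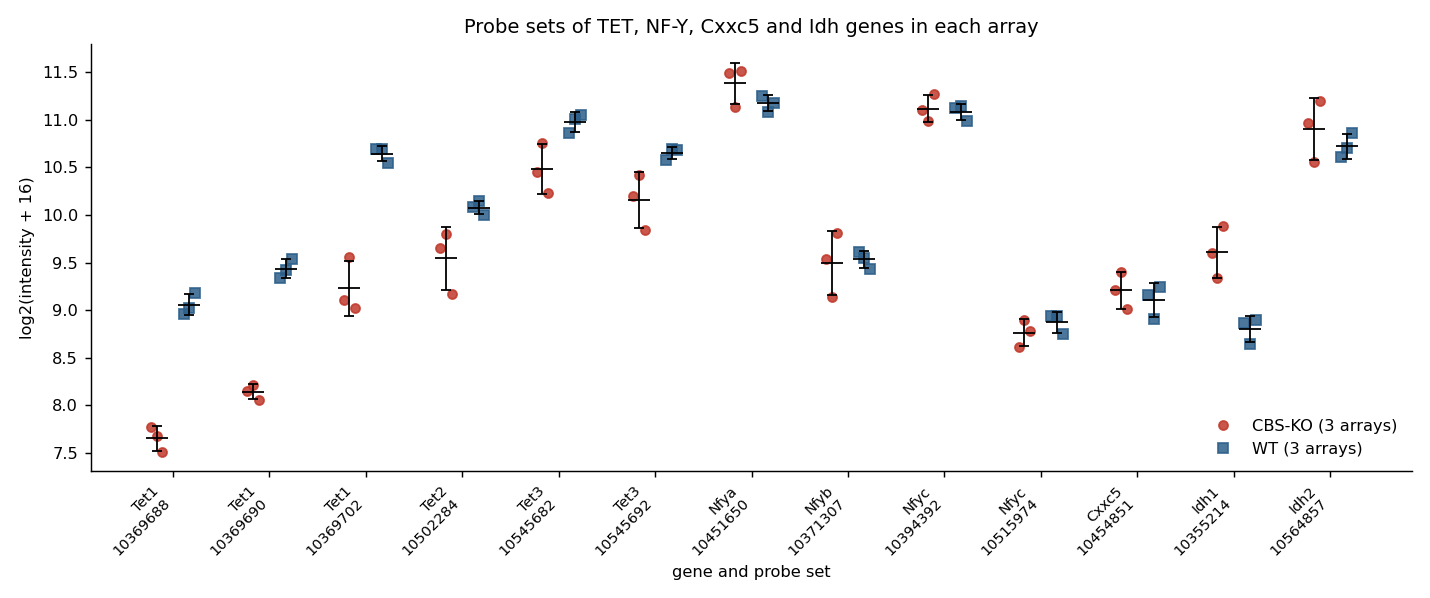
Each of the 13 probe sets (x axis) is shown with its log2(intensity + 16) on the 3 CBS-KO arrays (red circles, left) and the 3 WT arrays (blue squares, right), and bars give the mean and SD. The TET probe sets separate with CBS-KO below WT, most widely in Tet1, Idh1 separates with CBS-KO above WT, and the others overlap. Heights of different probe sets cannot be compared with each other.

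Tet1 stood further below its WT level than Tet2 and Tet3 in each CBS-KO array. Taking Tet2 from Tet1 (10369702) within each array left changes of -1.12, -0.81 and -0.72 in CBS-KO 1 to 3, a mean of -0.88. Against the Tet3 probe sets the same calculation gave -0.92 both times. The within-array differences of the groups did not overlap in these 3 pairs. The two-sided exact permutation test gave p = 0.1 for each, the smallest that 3 against 3 arrays allow, and 0.217 after adjustment over the 13 pairs of probe sets compared. Tet2 and Tet3 (10545682) differed in their change by -0.039, with overlapping arrays (exact permutation p = 0.7).

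Cd3d, a signalling chain of the T cell receptor complex, was itself lower, and whether it follows the share of T cell RNA was not tested. It stood at -1.07, -0.79 and -1.49 relative to the WT mean in CBS-KO 1 to 3 (log2 fold change -1.12, SE 0.18, limma adjusted p = 0.0199). In the same arrays Tet1 (10369702) stood at -1.54, -1.09 and -1.62, so that it lay below Cd3d on each, as did 10369688, while 10369690 (-1.38) lay above it in CBS-KO 3. Tet2 stood at -0.42, -0.27 and -0.91 and Tet3 (10545682) at -0.52, -0.22 and -0.74, all above Cd3d. The other CD3 chains had smaller differences than Cd3d. Cd3g fell by 0.74 (SE 0.13, limma adjusted p = 0.0243) and Cd3e had -0.42, -0.17 and -0.80, values close to those of Tet2 and Tet3. The calls of Cd3d and of Cd3g ended when CBS-KO 1, WT 1, WT 2 or WT 3 was dropped. With any single array left out, the difference of Cd3d lay between -1.28 and -0.93 and that of Cd3g between -0.88 and -0.64. CBS-KO 3 was lowest and CBS-KO 2 highest for Cd3d, Tet2, both Tet3 and 2 of 3 Tet1 probe sets. Across members, 6 of 13 had the array order of Cd3d and 5 had the opposite order, where 32.6% and 33.6% of all tested probe sets did.

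**Figure D2:**
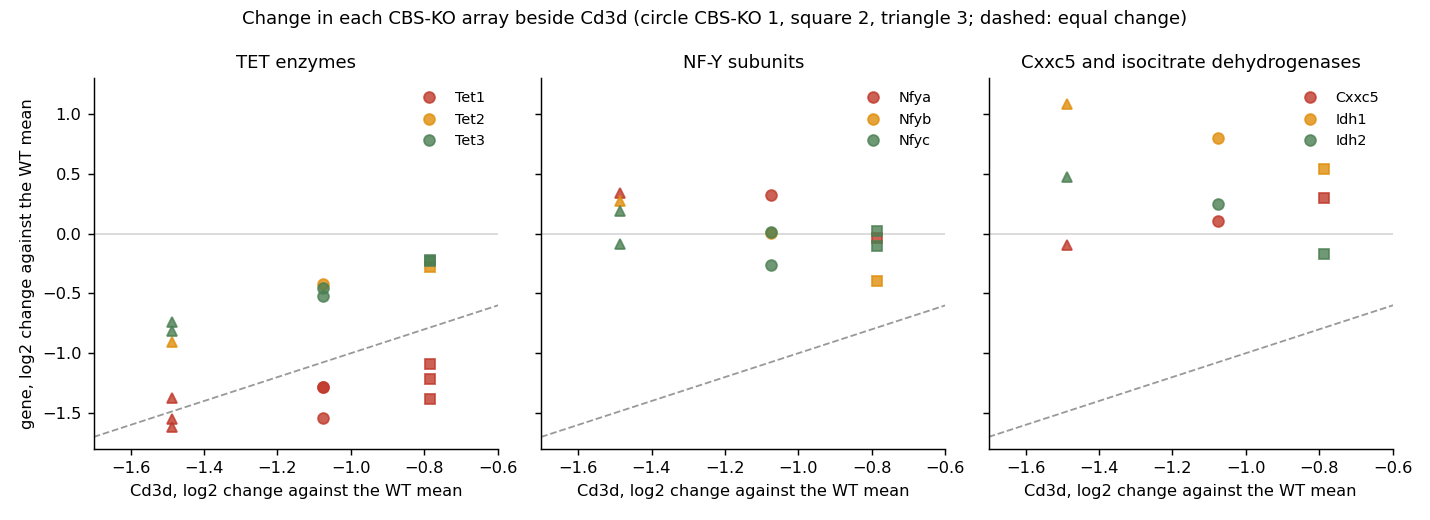
Each point is 1 probe set on 1 CBS-KO array, with the log2 change of Cd3d on that array along the x axis, that of the probe set along the y axis, both against the WT mean, and a dashed line of equal change. Tet1 lies near or below the line, Tet2 and Tet3 lie above it and fall with Cd3d, and NF-Y, Cxxc5 and Idh genes lie around or above 0.

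When the Cd3d value of the same array was subtracted from every probe set before the fit, Tet1 no longer differed beyond the error. Its probe sets had -0.30 (SE 0.21, interval -0.78 to 0.18, limma adjusted p = 0.201), -0.18 (SE 0.23, interval -0.69 to 0.34, 0.471) and -0.29 (SE 0.23, interval -0.80 to 0.22, 0.239) for 10369702, 10369690 and 10369688. These intervals do not show that Tet1 and Cd3d fell alike. The other 10 member probe sets were all called higher relative to Cd3d and none lower. Since 90.2% of all 20855 probe sets were called higher and 0.105% lower in this fit (90.3% in either direction), the 10 calls are not a result about these genes. The same 10 had every CBS-KO array above every WT array relative to Cd3d, as did 91.5% of all probe sets, and 1 (10369702) had every CBS-KO array below, as did 0.125%. The nearest arrays of 10369702 were hardly apart, at -1.098 in CBS-KO 3 and -1.090 in WT 3. The other Tet1 probe sets overlapped between the groups relative to Cd3d. Relative to Cd3d, Tet2 had 0.58 (SE 0.21, adjusted p = 0.0225) and Tet3 had 0.62 with both probe sets (SE 0.20, 0.0137 and 0.0139), and these were the smallest of the called members. The calls depended on the T cell gene subtracted. With the mean of Cd3d, Cd3e and Cd3g in place of Cd3d, the 3 Tet1 probe sets were called lower at -0.64, -0.52 and -0.63 (limma adjusted p = 0.0157, 0.0471 and 0.0247), as were 78 probe sets in all. In that fit 14520 probe sets were called higher. Tet2 (0.24, adjusted p = 0.232) and Tet3 (0.28, with 0.155 and 0.156) were then no longer called, nor was Nfyb (0.73, 0.0621). With Cd3d alone, Tet2 passed no more once CBS-KO 1 (adjusted p = 0.0997) or WT 1, 2 or 3 (0.0534, 0.0772 and 0.0884) was left out. The call of 10545682 ended when CBS-KO 1 (0.05001), WT 1 (0.0557) or WT 2 (0.0625) was dropped, and that of 10545692 when CBS-KO 1 (0.0629), WT 2 (0.0633) or WT 3 (0.0512) was.

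**Figure D3:**
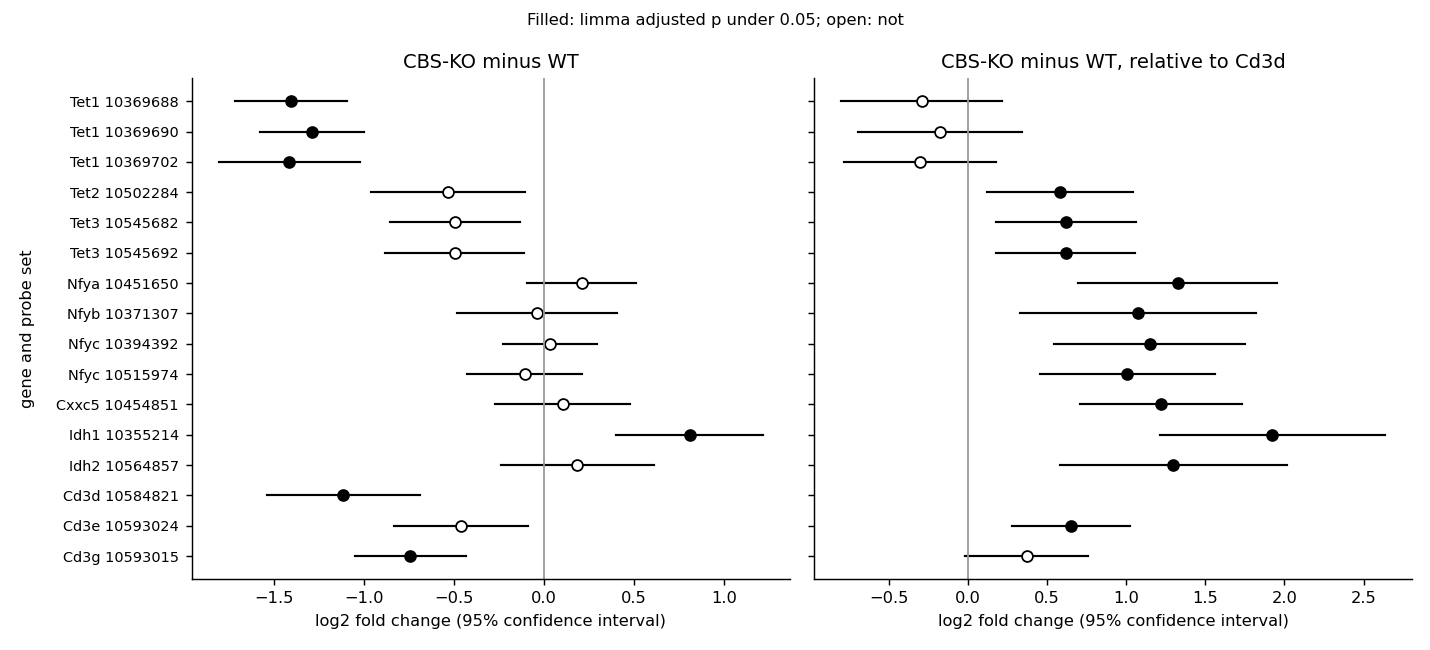
Log2 fold changes with 95% confidence intervals (x axis) are given for the 13 member probe sets and 3 CD3 genes (y axis), as CBS-KO minus WT on the left and after subtraction of Cd3d within each array on the right. Filled points passed the limma adjusted p of 0.05. On the left the intervals of all TET and CD3 genes lie below 0, of which Tet1, Cd3d and Cd3g passed, and that of Idh1 lies above it, and on the right the intervals of Tet1 span 0 while those of all other members lie above it.

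The NF-Y subunits did not differ between the groups beyond the error. Nfya, the subunit that contacts CCAAT, had intensities of 2865, 2239 and 2908 in CBS-KO 1 to 3, against 2423, 2154 and 2304 in WT 1 to 3. Its arrays overlapped because CBS-KO 2 fell within the WT range (log2 fold change 0.21, SE 0.13, interval -0.09 to 0.51, limma adjusted p = 0.314). Without CBS-KO 2 Nfya passed as higher (0.33, adjusted p = 0.0316). Nfyb had 728, 546 and 879 in CBS-KO against 768, 733 and 677 in WT cells, so that CBS-KO arrays lay on both sides of the WT range. Its difference was -0.040 (SE 0.19, interval -0.48 to 0.41, limma adjusted p = 0.917), with a spread of 0.34 (SD) in CBS-KO and 0.09 in WT cells.

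Nfyc was read by 2 probe sets. Probe set 10394392 had 2179, 2008 and 2457 in CBS-KO against 2213, 2244 and 2017 in WT cells, a difference of 0.034 (interval -0.23 to 0.29, limma adjusted p = 0.875). Probe set 10515974, annotated to a single RefSeq transcript of Nfyc, had 375, 462 and 425 in CBS-KO against 473, 474 and 414 in WT cells, a difference of -0.11 (interval -0.43 to 0.21, limma adjusted p = 0.635). Both overlapped between the groups, and their changes differed by less than the spread (0.14, exact permutation p = 0.4). The lower bound of Nfyb, -0.48, lies close to the difference of Tet2, and all 4 NF-Y intervals lie above the differences of Tet1. The array order also differed from the TET genes: Nfya, Nfyb and 10394392 were lowest in CBS-KO 2 and highest in CBS-KO 3. That order was found in 33.6% of all tested probe sets, and 10515974 was instead lowest in CBS-KO 1 and highest in CBS-KO 2. These are transcript values, and the protein or binding of NF-Y was not measured here. Cxxc5 had 575, 662 and 501 in CBS-KO against 557, 465 and 590 in WT cells, with a difference of 0.10 (SE 0.16, interval -0.27 to 0.48, limma adjusted p = 0.706).

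Idh1 was the member that rose. It had intensities of 760, 633 and 927 in CBS-KO 1 to 3, against 449, 384 and 459 in WT 1 to 3, and every CBS-KO array lay above every WT array. The log2 means were 9.61 ± 0.27 in CBS-KO and 8.80 ± 0.14 in WT cells (log2 fold change 0.81, SE 0.17, interval 0.40 to 1.22, limma adjusted p = 0.0377). The call ended when any array but CBS-KO 2 was dropped, with adjusted p of 0.131 (CBS-KO 1), 0.0564 (CBS-KO 3), 0.143 (WT 1), 0.154 (WT 2) and 0.0853 (WT 3). It also ended with no filter (0.0596) and with a common array median (0.0505). Idh2 had 1987, 1486 and 2334 in CBS-KO against 1540, 1649 and 1845 in WT cells, where CBS-KO 2 lay below all WT arrays. Its difference of 0.18 did not pass (SE 0.18, interval -0.24 to 0.61, limma adjusted p = 0.532). Idh1 exceeded Idh2 in its change by 0.56, 0.71 and 0.61 in CBS-KO 1 to 3 (exact permutation p = 0.1, the smallest possible, and 0.217 adjusted over the 13 pairs). Both were lowest in CBS-KO 2 and highest in CBS-KO 3, as were 33.6% of all tested probe sets. The mean of the red cell precursor markers followed that order, at 3.17, 2.27 and 3.55 above WT in CBS-KO 1 to 3, as did that of the proliferation markers, at 1.63, 0.62 and 1.96. Of these proliferation markers 5 of 9 measured (10 listed) were higher, with sums of 20272 to 45490.5 in CBS-KO and 12103 to 15586 in WT arrays, and the part of either list in the rise of Idh1 was not tested.

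Around the members, 121 further genes were tested, each by its brightest tested probe set, and 3 were called lower and 7 higher. They came from lists of the demethylation, 2-oxoglutarate and NF-Y pathways, and from a list of Tet1 neighbours on chromosome 10 and T cell genes under TET control. All are called pathway genes below, although Dna2, among the 7, was listed only as a neighbour of Tet1. These are 2.48% and 5.79% of the 121, close to the 4.47% and 5.09% of all tested probe sets, and so not a result about these pathways. Of 14 tested genes for excision and repair of oxidised cytosine, none passed (5 at an unadjusted p under 0.05), with a median log2 fold change of 0.21 beside -0.048 for all tested probe sets. The smallest p of the list was that of Apex1, the abasic site endonuclease (0.76, SE 0.21, limma adjusted p = 0.0662). None of 11 TET partners and CXXC genes passed (1 at an unadjusted p under 0.05, median -0.012), where Ogt, the glycosyltransferase that binds TET proteins, had -0.36 (adjusted p = 0.2). Among 22 genes that supply or remove 2-oxoglutarate, Idh1 alone passed, while Sdhc, a succinate dehydrogenase subunit, had 0.38 (adjusted p = 0.0563) and the transaminase gene Bcat2 had -0.46 (0.0633). Succinate dehydrogenase removes succinate, a product that inhibits TET enzymes.

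Among 8 tested genes for other enzymes that use 2-oxoglutarate on nucleic acids, 1 passed. Alkbh6, an AlkB family member, was lower at -0.82 (SE 0.17, limma adjusted p = 0.0346), and the median of the list was -0.046. The Alkbh6 call held in 11 of 17 alternatives and ended with no filter (0.0586), with the replicate block (0.0513) and when CBS-KO 1 (0.0883), WT 1 (0.141), WT 2 (0.133) or WT 3 (0.0970) was dropped. Alkbh4 had -0.31 (interval -0.66 to 0.03) and was called lower without CBS-KO 2 (adjusted p = 0.0397). Of 8 tested DNA methyltransferase and methylation reader genes none passed (3 at an unadjusted p under 0.05, median 0.20). The de novo methyltransferase gene Dnmt3a had -0.61 (adjusted p = 0.0584) and Uhrf1, the partner of maintenance methylation, had 1.69 (0.0606). Among 7 genes for vitamin C and iron supply, Tfrc, the transferrin receptor that red cell precursors express strongly, was higher at 2.36 (SE 0.42, limma adjusted p = 0.0256). The vitamin C transporter gene Slc23a2 had -0.69 (adjusted p = 0.0803). Tfrc had 2.59, 1.36 and 3.12 in CBS-KO 1 to 3. It is itself one of the red cell precursor markers given above, so a shared array order is no separate observation. That order, lowest in CBS-KO 2 and highest in CBS-KO 3, was found in 33.6% of all tested probe sets.

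Among 11 tested CCAAT, histone-fold and Sp factors, Sp4 was lower. Sp4 is a GC-box binding factor related to Sp1, a known partner of NF-Y, and it changed by -0.61, -0.61 and -0.65 in CBS-KO 1 to 3 (log2 fold change -0.62, SE 0.10, limma adjusted p = 0.0201). Its close relative Sp3 had -0.30, -0.32 and -0.32 (-0.31, adjusted p = 0.0564). These Sp4 and Sp3 values hardly varied over the 3 CBS-KO arrays, while Cd3d varied between -0.79 and -1.49. The median of the list was 0.034.

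Genes listed as NF-Y targets were taken in 3 classes, and no difference between the classes was tested. Their promoters were not searched for CCAAT here, and the class II list also holds regulators such as Rfxank and Rfx5. Of 15 cell cycle targets 4 were higher and 14 had positive differences, with a median of 1.53, where 5.09% of all tested probe sets were called higher and 8935 of 20856 had positive differences. These were Ccna2, the cyclin of S phase and G2 (1.99, SE 0.36, limma adjusted p = 0.0259), the nucleotide synthesis genes Rrm2 (1.96, SE 0.37, 0.0284) and Tk1 (1.65, SE 0.30, 0.0269), and the mitotic kinase gene Plk1 (1.63, SE 0.37, 0.042). Each was lowest in CBS-KO 2 and highest in CBS-KO 3, as were 33.6% of all tested probe sets. The red cell precursor and proliferation markers given above had this order too, and their part in these values was not tested. Rrm2 is itself a proliferation marker, and Top2a, Cdk1 and Ccnb1 also stand in both lists, so the match with proliferation is partly of genes with themselves. Of the 9 tested MHC class II genes and their regulators, the peptide loading gene H2-DMa was higher (0.78, SE 0.19, limma adjusted p = 0.0476). This call held in 7 of 17 alternatives, and ended among others with quantile normalization (0.0636), no filter (0.0792), the replicate block (0.0615) and sex as a term (0.128), and when CBS-KO 1 (0.149), WT 1 (0.176), WT 2 (0.164) or WT 3 (0.102) was dropped. Rfxank, a subunit of the RFX complex that works beside NF-Y at class II promoters, was lower (-0.62, SE 0.11, 0.0237), at -0.57, -0.66 and -0.63 in CBS-KO 1 to 3. Its partner Rfx5 had -0.56 (adjusted p = 0.0512). H2-DMa was highest in CBS-KO 2 (1.14). The 9 measured B cell markers had their highest sum on that array, 25867 against 14394 and 9624 in CBS-KO 1 and 3. WT arrays had 9535 to 13493. Sums of monocyte and macrophage markers (26569 against 21284 and 19813) and of dendritic cell markers (5155 against 4070 and 2448) were also highest there. Among CBS-KO arrays this held for NK, CD4 and CD8 T cell markers too, while neutrophil, red cell precursor and proliferation markers had their lowest sums there. The part of any cell type in H2-DMa was not tested. None of 11 stress and sterol targets passed (3 at an unadjusted p under 0.05, median 0.14). The smallest adjusted p was that of the chaperone gene Hsp90b1 (0.29, adjusted p = 0.0564). The calls in these lists rested on few arrays: the 3 lower and 7 higher genes became 0 and 0 when CBS-KO 1, WT 1 or WT 2 was dropped, 0 and 1 when WT 3 was, 14 and 44 when CBS-KO 2 was, and 10 and 35 with sex as a model term. The calls over all probe sets moved with them, from 933 lower and 1062 higher to 48 and 117 without CBS-KO 1, 24 and 69 without WT 1, 18 and 54 without WT 2, 242 and 428 without WT 3, 3043 and 3390 without CBS-KO 2, and 2667 and 2309 with sex as a term.

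**Figure D4:**
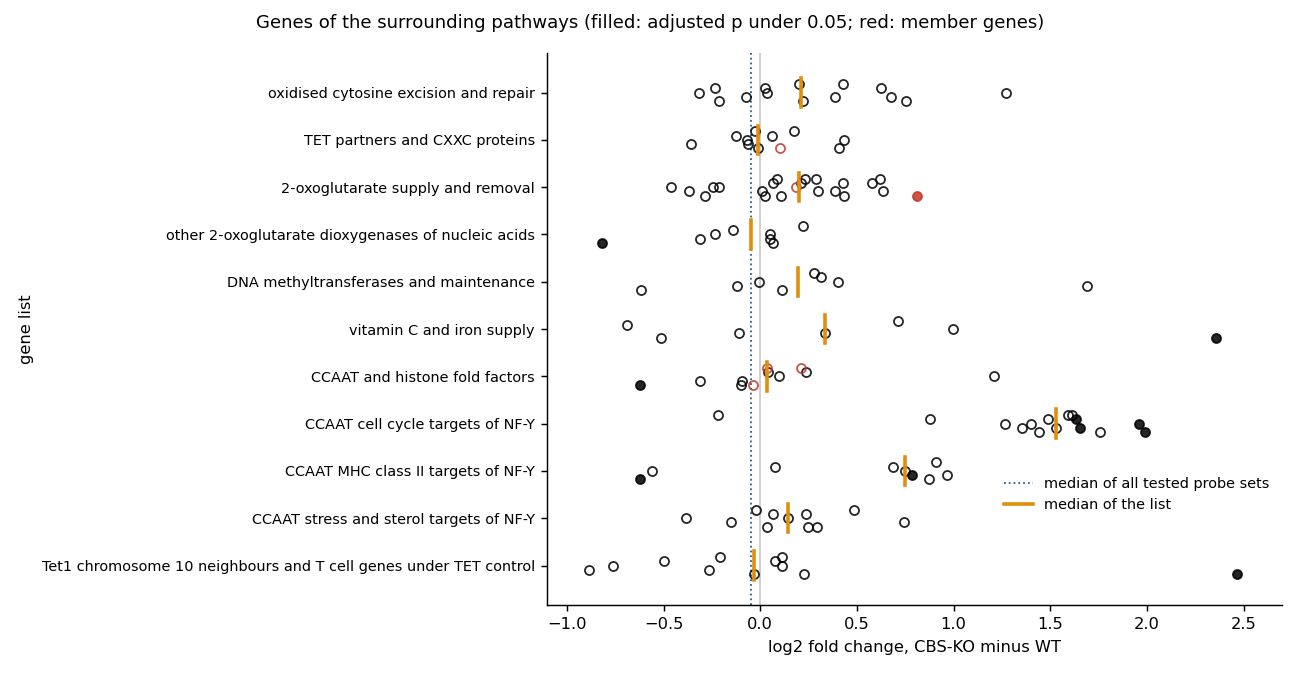
Each circle is the log2 fold change, CBS-KO minus WT (x axis), of 1 gene of a pathway list (y axis), filled where the limma adjusted p was under 0.05 and red for member genes. The orange bar is the list median and the dotted line the median of all tested probe sets. Cell cycle targets lie to the right as a group, and most other lists straddle 0.

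On chromosome 10, where Tet1 lies, the gene order of GRCm38.p6 places Ccar1 on one side of it and Slc25a16, Dna2 and Rufy2 on the other. Ccar1 and Slc25a16 are given as the adjoining genes, whatever their values. Ccar1, a cell cycle and apoptosis regulator, had 0.08 (SE 0.12, limma adjusted p = 0.72) and Slc25a16, a mitochondrial carrier, 0.23 (SE 0.15, 0.362). Dna2, a nuclease and helicase of DNA replication and repair, was higher at 2.46 (SE 0.35, limma adjusted p = 0.0156), with 2.71, 1.70 and 2.98 in CBS-KO 1 to 3. Rufy2 had -0.89 (SE 0.23, adjusted p = 0.0575). Neither adjoining gene had a negative difference. Foxp3, which defines regulatory T cells, had -0.08, 0.21 and -0.92 in CBS-KO 1 to 3 and did not differ beyond the error (-0.27, SE 0.28, limma adjusted p = 0.565). With sex as a model term, where the estimate rests on CBS-KO 3 alone, Foxp3 had -0.92. Without CBS-KO 3 its sign turned (0.06, limma adjusted p = 0.813).

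Of 13859 other tested probe sets that name 1 gene, the 5 with the array profile nearest to Tet1 were found by the root mean square difference from 10369702 over the 6 arrays, each centred on its WT mean. Ddx60, an antiviral helicase, was nearest at 0.052 log2 units, with -1.56, -1.18 and -1.63 in CBS-KO 1 to 3. Nipal1 followed at 0.091, then Trat1, an adaptor of the T cell receptor complex, at 0.12. P2ry10b, of a family of lymphocyte receptors, and 4932438A13Rik completed the list, both also at 0.12. Their log2 fold changes lay between -1.50 and -1.28, near that of Tet1 by the way they were chosen. Cd3d ranked at place 52 by this measure, at 0.24.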

How the data were processed

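Total RNA of CD4+ T cells was labelled and hybridised to Affymetrix arrays per the labels' protocols. The authors deposited 1 linear intensity per probe set and array. The sources used here do not describe background correction, normalization or summary, and the scale was read from the values. Testing required a mean log2(intensity + 16) above the 40th percentile (6.99), which 20856 probe sets met. Fold changes understate those of dim probe sets because of this offset. The groups were compared with limma 3.58.1 (R 4.3.3, eBayes with a trend, two-sided, Benjamini-Hochberg over all tested probe sets, threshold 0.05), tested on simulated data. In a second fit the Cd3d value (probe set 10584821) of each array was subtracted first. Promoters came from RefSeq tables, and figures from matplotlib 3.10.9. Gene names came from the platform annotation.

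All members, list genes with a call or among the 4 of smallest p in a list, and the 5 genes nearest to Tet1 could be named. The members and lists were chosen with earlier results of these data known. Replicate numbers were not taken to pair the samples. The correlations of same-numbered deviations were 0.06, 0.16 and 0.11, each the highest for its CBS-KO array.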

Additional observations from a re-analysis of the deposited data

How the results depend on the processing

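In all 16 alternatives that tested it, Tet1 probe set 10369688 stayed lower and called throughout (adjusted p at most 0.0497). Over all fits of member probe sets, 192 kept direction and call for CBS-KO minus WT, 11 lost the call, 7 gained it and 7 changed sign; relative to Cd3d these were 211, 15, 3 and 1. Leaving out single arrays, the members called lower numbered 1 to 6 and higher 0 to 2 (all probe sets, 18 to 3043 lower and 54 to 3390 higher). Relative to Cd3d, 0 members were lower and 7 to 10 higher (all probe sets, 15 to 29 and 16634 to 19464). Among pathway genes 0 to 14 were lower and 0 to 44 higher. The members called higher were 0 with a common array median and 0 with no filter, beside 951 and 602 over all probe sets. The members called lower were 1 with a mean per gene, where Tet1 counts once, beside 973 over all genes. With the mean of 3 CD3 genes subtracted, 3 members were lower and 6 higher, beside 78 and 14520 over all probe sets. The other pathway genes called lower and higher were 5 and 8 with a common median, 6 and 12 with the 60th percentile filter, 7 and 18 with gene means, 2 and 4 with no filter, 6 and 12 after quantile normalization and 10 and 35 with sex as a term. The replicate numbers were not taken to pair the samples, although every CBS-KO array correlated best with the WT array of its own number. With the replicate block the other pathway genes called lower and higher were 3 and 16, beside 924 and 1169 over all probe sets. All 3 Tet1 probe sets then stayed called (limma adjusted p at most 0.0169), and Tet2 relative to Cd3d lost its call (0.0573). Alternatives on pathway genes were added after seeing the data.

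Some small differences changed sign. Nfyc 10394392 had -0.037 with gene means. With sex as a term Nfyb had 0.27, Cxxc5 -0.092, Alkbh3 0.10 and Tet1 10369690 relative to Cd3d 0.11. With single arrays left out, Nfyb ran from -0.20 to 0.14, Nfyc 10394392 from -0.043 to 0.10, Cbs from -0.048 to 0.15 and Foxp3 from -0.50 to 0.063. The cause was not tested. The detection limit of the arrays is not known, so the size of changes in dim probe sets is uncertain.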
